A study of Mus musculus with 4 samples.

Results

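The genes described here are 10 target genes of the transcription factor NRF2: Hmox1, Nqo1, Gclm, Gclc, Slc7a11, Gsr, Txnrd1, Srxn1, Prdx1 and Osgin1. They were chosen by symbol from the 31017 gene symbols of the deposited matrices, and all 10 were found. Their transcripts were counted by single-cell RNA sequencing in 4 libraries of mouse testis, 1 library per group, and are given for all cells and for cell classes set by marker genes. All mice were C57BL/6 and carried an Acr-Gfp transgene, in which the acrosin promoter, active in meiotic germ cells, drives green fluorescent protein. The 2-day culture and the 7-day culture held testis tissue of 7 days postpartum (dpp), freed of its capsule, cut up and kept for 2 or 7 days at the surface of 1.5% agarose. The medium was α-MEM with 40 mg/mL AlbuMAX, a lipid-rich albumin, and a chip of PDMS (a silicone) covered the tissue. The other groups were testes taken at 9 dpp and at 14 dpp without culture, the ages that 7 dpp tissue reaches after 2 and 7 days. All 4 groups were dissociated with collagenase I for 25 min and 0.05% trypsin-EDTA for 10 min. How many animals each library holds is not given in the sources used here.

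NRF2, encoded by Nfe2l2, is held at a low level in unstressed cells by KEAP1, which presents it to a CUL3 ubiquitin ligase. Electrophiles and oxidants modify cysteines of KEAP1, NRF2 then accumulates, pairs with small MAF proteins and binds antioxidant response elements, and BACH1 can hold some of the same elements, above all that of Hmox1, in a repressed state. In tissues such as testis these enzymes remove peroxides and quinones, and in macrophages heme oxygenase serves the turnover of heme and iron.

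The members fall into roles. Hmox1 (chr8:75093621-75100589, plus strand) encodes heme oxygenase 1, which splits heme into biliverdin, carbon monoxide and iron. Nqo1 (chr8:107388225-107403206, minus strand) encodes a quinone reductase. Gclm (chr3:122245557-122270732, plus strand) and Gclc (chr9:77754535-77794485, plus strand) encode the modifier and catalytic subunits of glutamate-cysteine ligase, which makes the first and rate-limiting step of glutathione synthesis. Slc7a11 (chr3:49892526-50443614, minus strand) encodes the cystine importer xCT, and Gsr (chr8:33652523-33698163, plus strand) encodes the reductase that regenerates glutathione. Txnrd1 (chr10:82833951-82897712, plus strand) encodes cytosolic thioredoxin reductase. Prdx1 (chr4:116685544-116700822, plus strand) encodes a peroxiredoxin that breaks down hydrogen peroxide, and Srxn1 (chr2:152105516-152111376, plus strand) encodes sulfiredoxin, which repairs overoxidised peroxiredoxins. Osgin1 (chr8:119434124-119446256, plus strand) encodes a growth inhibitor induced by oxidative stress. These are whole-gene spans of protein-coding genes on GRCm38. The 3′ tags behind the counts do not tell isoforms apart.

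The antioxidant response element, the DNA site shared by NRF2 targets, was searched as its core TGACNNNGC on both strands of RefSeq promoters (GRCm38.p6, 250 bases before to 50 bases after each start). RefSeq promoters were at hand for 7 of the 10 members, 9 promoters in all. A promoter was not at hand for Hmox1, Gclc and Gsr. The 4 promoters with a match are shown because they carry the element the gene group is named for. Capitals mark the match, which in all 4 reads as the reverse complement of the core on the printed strand. Each is printed 5′ to 3′ on the plus strand. The windows are chr3:122245307-122245606 for Gclm, chr2:152105274-152105573 for Srxn1, chr10:82858956-82859255 for Txnrd1 (the second of 3 start sites) and chr4:116685349-116685648 for Prdx1.
Gclm: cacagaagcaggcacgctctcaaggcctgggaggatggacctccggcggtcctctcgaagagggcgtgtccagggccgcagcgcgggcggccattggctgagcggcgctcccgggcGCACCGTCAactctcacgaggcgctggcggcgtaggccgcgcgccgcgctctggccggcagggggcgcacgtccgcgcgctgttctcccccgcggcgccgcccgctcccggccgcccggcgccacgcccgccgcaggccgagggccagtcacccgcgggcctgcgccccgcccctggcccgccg
Srxn1: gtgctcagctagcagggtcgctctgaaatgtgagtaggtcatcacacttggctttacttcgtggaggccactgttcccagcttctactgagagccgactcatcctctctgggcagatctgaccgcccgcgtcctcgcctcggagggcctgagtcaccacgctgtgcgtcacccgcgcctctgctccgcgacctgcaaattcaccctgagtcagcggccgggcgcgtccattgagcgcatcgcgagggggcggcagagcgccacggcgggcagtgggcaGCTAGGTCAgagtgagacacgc
Txnrd1: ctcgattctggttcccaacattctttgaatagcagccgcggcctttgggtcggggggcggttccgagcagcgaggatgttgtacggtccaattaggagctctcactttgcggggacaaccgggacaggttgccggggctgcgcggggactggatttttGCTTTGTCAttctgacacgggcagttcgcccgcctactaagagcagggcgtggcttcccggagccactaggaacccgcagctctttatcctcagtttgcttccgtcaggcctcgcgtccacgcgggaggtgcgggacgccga
Prdx1: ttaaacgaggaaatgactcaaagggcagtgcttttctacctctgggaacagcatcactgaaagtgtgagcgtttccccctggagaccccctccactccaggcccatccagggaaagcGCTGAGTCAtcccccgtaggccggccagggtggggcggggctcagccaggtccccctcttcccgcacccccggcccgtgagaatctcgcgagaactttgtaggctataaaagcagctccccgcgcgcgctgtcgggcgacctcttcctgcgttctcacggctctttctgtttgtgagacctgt
The match lies 134 bases before the start in Gclm, 92 before it in Txnrd1, 133 before it in Prdx1 and 29 after it in Srxn1. A match stood in 12.4% of the 32544 RefSeq promoters of this length, 4038 in number. The 9-base form TGACTCAGC, which also contains the AP-1 motif TGAGTCA on its other strand, was found among these members in Prdx1 only and in 0.458% of all promoters. A TGAGTCA motif on either strand stood in the windows of Srxn1, Prdx1 and Osgin1 and in 5.19% of all promoters. A match is a description of letters in the window and no evidence of binding.

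After filtering, 23007 cells were kept, between 4807 and 6868 per library, with 32045045 to 57478395 unique molecular identifiers (UMIs, each 1 captured transcript) per library. Values given 4 at a time follow 1 order: first the culture of 2 days, next that of 7 days, then testis of 9 dpp and last of 14 dpp. The median UMIs per cell were 3606, 5567, 8551.5 and 6449.5 in this order. Levels are given as UMIs per 1000000 (CPM) of the summed cells with 95% Poisson intervals, and differences as log2 ratios of CPM + 1 with 95% intervals. These intervals cover counting error only. Each group is 1 library, so there is no test, and a difference between libraries cannot be told apart from a difference between animals or preparations. A ratio past 2-fold in either direction is called higher or lower, and the share of all tested genes past 2-fold is given as background. The library protocol in the labels speaks of female gonads, while the tissue label is testis. Cells with Sertoli markers (505 to 1163 per library) and Leydig markers (73 to 134) were found in all 4 libraries. Between the libraries, 323 cell barcode sequences were shared by more than 1, held by 600 kept cells. Leaving these cells out kept the sign of 182 of 184 member ratios and ended 1 call, that of Osgin1 in Leydig-like cells of the later pair.

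In all cells together, sulfiredoxin, xCT and Osgin1 transcripts were more abundant in the 2-day culture than at 9 dpp, and of these only Srxn1 was past 2-fold in the 7-day culture against 14 dpp. Srxn1 had 17.9 and 10.7 CPM after 2 and 7 days of culture, and 5.50 and 3.97 CPM in testes of 9 and 14 dpp. Both cultures were above both uncultured testes. Its log2 ratio was 1.54 (95% interval 1.36 to 1.72) for the 2-day culture against 9 dpp and 1.24 (1.03 to 1.44) for the 7-day culture against 14 dpp. Osgin1 had 9.21, 8.40, 2.57 and 5.73 CPM in the order given above, with log2 ratios of 1.51 (1.28 to 1.74) and 0.48 (0.28 to 0.68). The smaller second ratio came with a higher level at 14 dpp than at 9 dpp. Slc7a11 was sparse, with 3.34, 1.97, 0.818 and 1.64 CPM, and its log2 ratios were 1.26 (0.96 to 1.53) and 0.17 (−0.12 to 0.47). From a sum over all cells alone, fewer cells of a type and less RNA per cell cannot be told apart. Class shares were next held equal in all libraries, in sums not limited to the 4 large classes. The log2 ratios of the pairs were then 1.30 and 1.10 for Srxn1, 1.14 and 0.35 for Osgin1 and 1.35 and 0.42 for Slc7a11. With each cell weighted equally, Srxn1 went to 0.94 and 0.60 and Slc7a11 to 0.87 in the earlier pair, all under 2-fold, so that only Osgin1 kept its call.

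**Figure D1:**
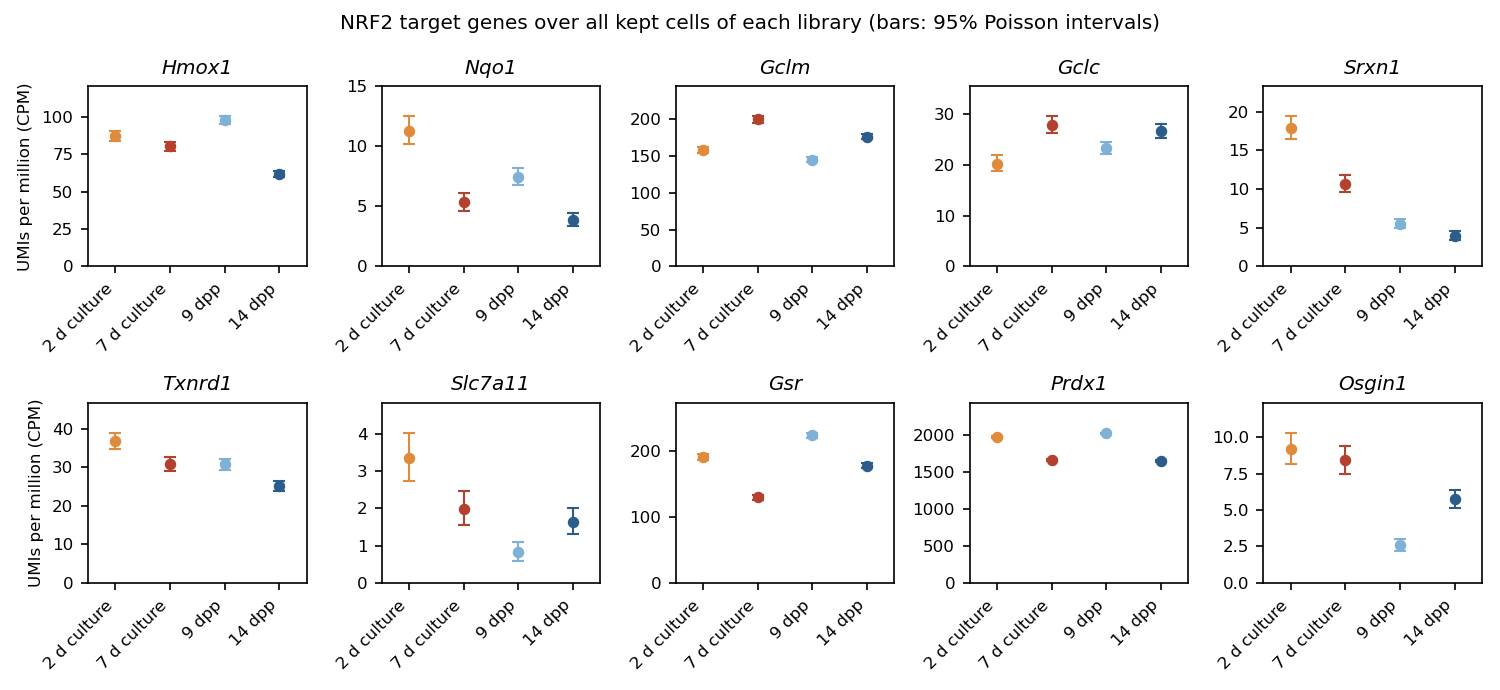
Level of each of the 10 genes in CPM (vertical axis, from 0) in the summed kept cells of the 4 libraries, with bars for 95% Poisson intervals, which cover counting error only. Srxn1 and Osgin1 are higher in both cultures than at the matched age, whereas the levels of Prdx1, from 1645 to 2018 CPM, lie close together.

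Of the 10 members, 3 were called higher in the 2-day culture (background 4.18% of 16613 genes) and none lower (background 3.40%). In the 7-day culture 1 was called higher (background 3.57%) and none lower (background 2.67%). Weighting each cell equally left 1 of the 3 and none of the 1. Hmox1 had 87.3, 80.5, 98.1 and 61.6 CPM, so the earlier pair had a log2 ratio of −0.17 (−0.23 to −0.10) and the later pair 0.38 (0.31 to 0.45). Nqo1 had 11.3, 5.35, 7.48 and 3.86 CPM, higher in culture by 0.54 (0.35 to 0.72) and 0.38 (0.15 to 0.62) on the log2 scale, but by 0.10 and −0.00906 with class shares held equal. Under equal class shares Hmox1 gave 0.05 and 0.63, so its earlier ratio turned sign, and with each cell weighted equally −0.26 and −0.12, so its later ratio turned sign. The glutathione genes differed little: the log2 ratios of the pairs were 0.13 and 0.18 for Gclm, −0.19 and 0.06 for Gclc, and −0.23 and −0.45 for Gsr. Equal class shares turned the earlier ratios of Gclc and Gsr to 0.08 and 0.10. Prdx1 differed by −0.04 and 0.01, and Txnrd1 by 0.25 and 0.28. The median of the 10 log2 ratios was 0.19 in the earlier pair, beside −0.12 for all tested genes, and 0.23 in the later pair, beside 0.00. DESeq2 size factors moved the earlier medians to 0.35 for the members and 0.01 for all genes, and turned the Prdx1 ratio of that pair from −0.04 to 0.13, so members are best read against the all-gene median.

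Between the 2 ages without culture, and between the culture times, no member was past 2-fold. Background for 14 dpp against 9 dpp was 4.12% higher and 1.95% lower, and for the 7-day against the 2-day culture it was 4.54% and 2.38%. These comparisons use the same 4 libraries as the culture pairs. Nqo1 gave −0.80 for 14 dpp against 9 dpp and −0.95 for the 7-day against the 2-day culture. Osgin1 was 0.91 higher at 14 dpp than at 9 dpp on this scale and −0.12 between the cultures, which turned to 0.31 with each cell weighted equally and to 0.25 with class shares held equal. The member medians were −0.29 and −0.25, beside −0.04 and 0.07 for all genes.

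Cells were assigned to classes by UMIs of marker genes, a rule set after the data were seen, and classes are called by the cells whose markers they carry. The 4 libraries held 2800, 2547, 2524 and 3674 germ-like, 2511, 1525, 1510 and 1103 stroma/myoid-like, 1163, 505, 796 and 716 Sertoli-like, and 88, 73, 113 and 134 Leydig-like cells. Leydig-like cells were not set against stroma/myoid markers, which they also carried: their median marker scores were 9, 11, 17 and 18 for Leydig and 10, 12, 22 and 18 for stroma/myoid markers. Few cells of a class had a marker score of at most 6, next to the smallest score of 5 that made a class: 142 of 11545 germ-like, 16 of 6649 stroma/myoid-like, 20 of 3180 Sertoli-like and 23 of 408 Leydig-like cells. These Leydig-like cells were unevenly spread, with 13, 4, 5 and 1 in the libraries. The plot of log2 ratios by class shows that the members did not move alike: stroma/myoid-like cells had mainly positive ratios in culture, germ-like cells had ratios on both sides of 0, and Leydig-like cells were split.

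**Figure D2:**
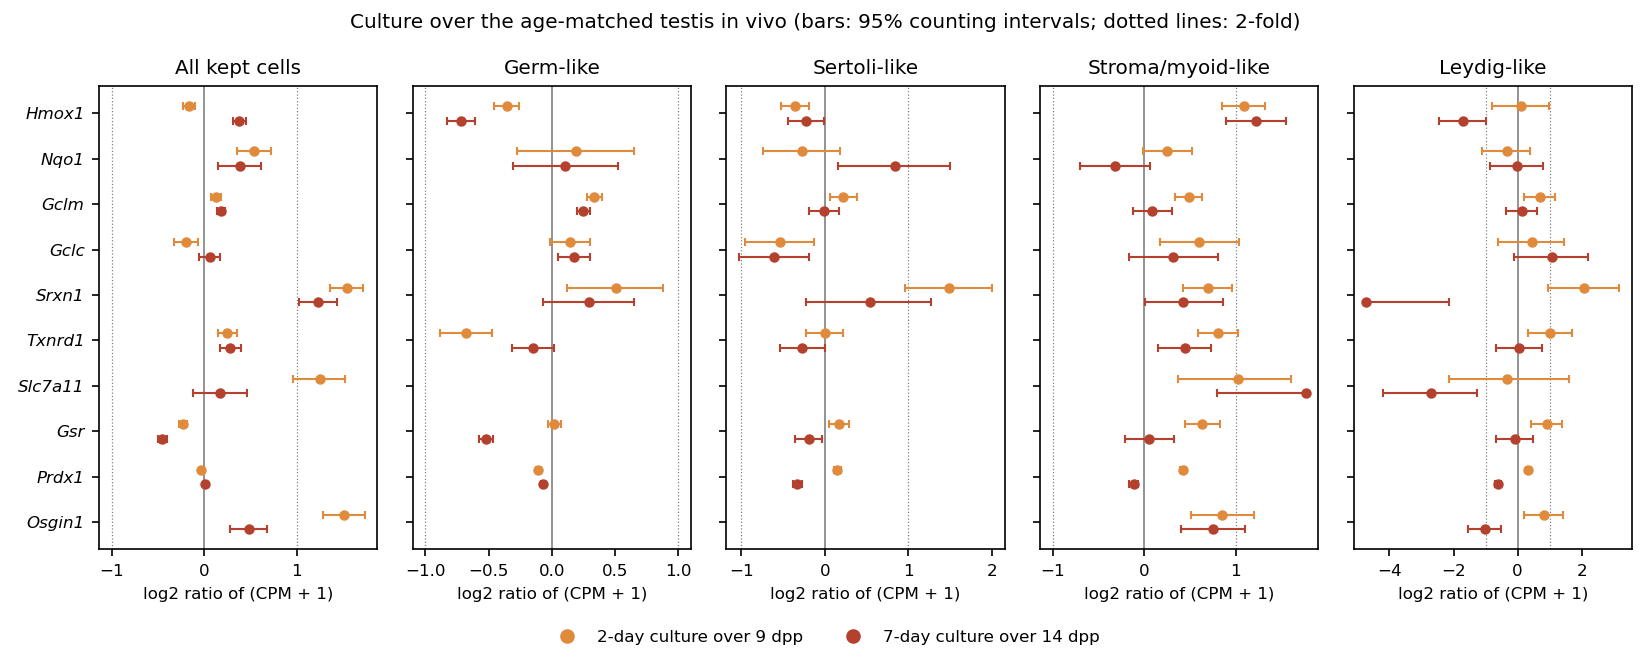
Log2 ratio of CPM + 1 (horizontal axis, each panel with its own range) for the 2-day culture against 9 dpp (orange) and the 7-day culture against 14 dpp (red), in all cells and in 4 classes, with bars for 95% counting intervals and dotted lines at 2-fold. In stroma/myoid-like cells all 10 orange points lie above 0, and in Leydig-like cells Hmox1, Srxn1, Slc7a11 and Osgin1 lie beyond the 2-fold line on the lower side in the later pair.

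The highest levels of Hmox1 were in macrophage-like cells, and there Hmox1 was higher in culture than at the matched age. This class held only 10, 14, 25 and 44 cells, fewer than the 50 set for class comparisons. Its values were picked out after they were seen and are a description. Hmox1 reached 7037 CPM after 2 days of culture and 2445 CPM after 7 days, against 2358 and 406 CPM at the matched ages. It was 2.98-fold higher (2.66 to 3.35) in the earlier pair and 6.02-fold higher (5.01 to 7.29) in the later pair. The level in the 7-day culture was close to that of 9 dpp, and 14 dpp stood lowest. These cells held 0.272%, 1.22%, 0.432% and 0.557% of all UMIs of their library but 21.9%, 37.1%, 10.4% and 3.67% of its Hmox1 UMIs.

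Cell by cell, Hmox1 was detected in 10 of 10, 13 of 14, 23 of 25 and 25 of 44 macrophage-like cells. As a cell type low in Hmox1, pachytene-like germ cells had a UMI in 1.19% of 84 cells of the 7-day culture and 4.39% of 114 cells at 14 dpp. Median depths were 15769 and 23756 UMIs in those cells, against 34382.5 and 6773.5 in the macrophage-like cells of the same libraries. With every cell thinned to 2000 UMIs, the shares of macrophage-like cells with Hmox1 were 100%, 64.3%, 70.8% and 35.7%, while no pachytene-like cell had one in the 80 and 106 cells left. Those counts of 0 allow up to 4.51% and 3.42% of cells with a UMI at the thinned depth (exact 95% limits, counting error only), which is no limit on cells that express the gene. Thinning left out 1 macrophage-like cell at 9 dpp and 2 at 14 dpp. The median cell had 6761, 1043, 570 and 132 CPM. The sums rested on few cells: the top 3 cells held 58.8%, 69.9%, 72.1% and 49.6% of the class's Hmox1 UMIs.

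**Figure D3:**
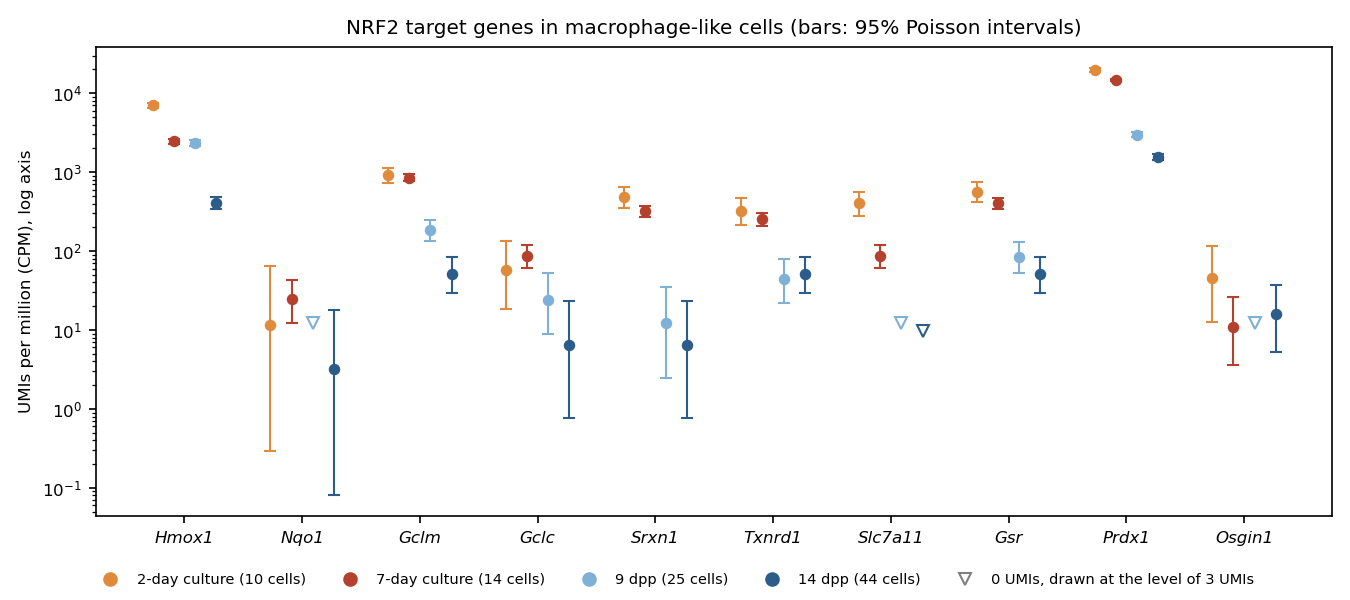
Level of the 10 genes in CPM (log axis) in macrophage-like cells of the 4 libraries, with bars for 95% Poisson intervals. Open triangles mark genes with 0 UMIs, drawn at the level of 3 UMIs. Hmox1, Gclm, Gsr, Prdx1, Srxn1 and Slc7a11 are higher in both cultures than at the matched ages, on 10 to 44 cells per library.

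Over the 2912 genes with at least 50 UMIs in these cells, 12.5% were past 2-fold higher in culture in the earlier pair and 26.9% lower, and 10% and 17.1% in the later pair. No count over the members is read against these shares. Of the members with 50 UMIs, only Hmox1, Gclm and Prdx1 had as many in the uncultured libraries, and Srxn1, Slc7a11, Gsr, Txnrd1 and Gclc reached 50 only with the UMIs of the cultures. Srxn1 had 481, 319, 12.1 and 6.40 CPM, a difference of 39.8-fold (12.7 to 201) in the earlier pair and 49.8-fold (13.5 to 415) in the later pair, the uncultured values being 3 and 2 UMIs. Slc7a11 had 401 and 86.3 CPM in the cultures and 0 UMIs at both ages, so it was at least 33.2-fold and at least 8.99-fold higher against a floor of 3 UMIs. The few macrophage-like cells held 32.7% and 53.4% of all Slc7a11 UMIs of the 2 cultures.

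Prdx1 had 19691, 14770, 2971 and 1548 CPM in macrophage-like cells, 6.63-fold and 9.54-fold higher in culture. Gclm had 917, 845, 185 and 51.2 CPM (4.95-fold and 16.5-fold), and Gsr had 562, 400, 84.6 and 51.2 CPM (6.64-fold and 7.83-fold). Txnrd1 had 321, 252, 44.3 and 51.2 CPM (7.24-fold and 4.93-fold). Gclc was also higher in culture, at 57.3 and 86.3 against 24.2 and 6.40 CPM, but the earlier pair rested on 5 against 6 UMIs and the later on 39 against 2. Nqo1 and Osgin1 had at most 11 and 5 UMIs in any library there.

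The cells of this class also differed in their own markers. The sum of the 11 macrophage markers was 6900 and 6190 CPM in the cultures and 23805 and 23087 CPM at 9 and 14 dpp. Complement C1qa had 275, 690, 4551 and 5625 CPM and the mannose receptor Mrc1 had 115, 19.9, 1125 and 883 CPM, lower in culture. Cd68 (1341, 878, 1306 and 1132 CPM) was at like levels, and Cx3cr1 was at 0 in the 2-day culture only. Of 6 neutrophil markers, 2 had UMIs in each culture and at 9 dpp and none at 14 dpp, with sums of 160, 137, 24.2 and 0 CPM, while S100a9, Retnlg, Mpo and Ngp were at 0 throughout. The part of these shifts in the member levels was not tested. Cells with enough macrophage marker UMIs but too many of another class, 0, 6, 4 and 16 in number, held 0, 287, 34 and 32 Hmox1 UMIs. With these cells added, Hmox1 was 3.60-fold and 6.47-fold higher, and Slc7a11 at least 42.3-fold and 5.76-fold higher.

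Without the macrophage-like cells and those mixed cells, an alternative added after seeing the data, the all-cell picture differed. The later-pair log2 ratio of Hmox1 turned from 0.38 to −0.43, and its earlier-pair ratio went from −0.17 to −0.36. That of Srxn1 went from 1.54 to 1.45 in the earlier pair and from 1.24 to 0.59 in the later, so that no member was past 2-fold in the later pair. Slc7a11 went from 1.26 to 0.84, which ended its call and left 2 of 3 in the earlier pair, and from 0.17 to −0.40, whereas Osgin1 kept 1.49 and 0.51. The share of macrophage-like cells itself was 0.146%, 0.291%, 0.486% and 0.711%, lower in culture than at the matched ages.

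Stroma/myoid-like cells, the interstitial fibroblast-like and peritubular cells, had higher levels of most members in culture. All 10 members had a positive log2 ratio in the 2-day culture against 9 dpp, with a median of 0.66 beside −0.18 for all 12159 tested genes, of which 34.3% were positive. In the 7-day culture against 14 dpp, 8 of 10 were positive, with a median of 0.37 beside −0.02 and 48.5% of all genes positive. Called higher were 2 members in the earlier pair, Hmox1 and Slc7a11 (background 5.73%), and the same 2 in the later pair (background 5.16%). None was called lower (background 7.18% and 4.75%). Slc7a11 reached the minimum of UMIs for a ratio in this class only with those of the cultures. Its calls and signs in the culture pairs are therefore not read against these shares of all genes.

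Hmox1 had 45.7 and 44.9 CPM in cultured stroma/myoid-like cells and 20.9 and 18.7 CPM in those of the uncultured ages. The cultures lay near each other and well above both ages, with no overlap of the counting intervals. The log2 ratios were 1.09 (0.86 to 1.32) and 1.22 (0.89 to 1.55), and the time comparisons gave −0.15 and −0.02. A single cell of the 2-day culture held 56 of its UMIs, and the largest counts in a cell elsewhere were 9, 18 and 2. With each cell weighted equally the log2 ratios were 0.79 and 0.93, under the 2-fold line. Thinned to 2000 UMIs per cell, the shares of cells with Hmox1 were 6.74%, 6.93%, 3.67% and 3.48%, against 13.8%, 14.6%, 10.7% and 7.43% unthinned. Thinning left out 287, 96, 38 and 97 cells. Macrophage markers summed to 5.43, 3.39, 4.81 and 5.35 CPM in this class, near 0 beside the level in macrophage-like cells.

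Slc7a11 was near its detection limit in this class, with 35, 17, 10 and 0 UMIs, or 3.22, 2.4, 1.07 and 0 CPM. The log2 ratio of the earlier pair was 1.03 (0.37 to 1.60), and in the later pair it was at least 3.89-fold higher against a floor of 3 UMIs. At 14 dpp it was also called lower than at 9 dpp (background 2.99%), the one such call of the 10 members, while against the floor of 3 UMIs it was at least 1.73-fold lower. No member was called higher at 14 dpp than at 9 dpp (background 2.04%), and between the cultures none was called (background 3.34% higher and 3.55% lower). Of the 17 UMIs of the 7-day culture, 9 came from 1 cell. The call therefore rests on very few transcripts. With each cell weighted equally, the log2 ratios of the pairs were 0.63, under 2-fold, and 1.25.

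Thioredoxin reductase and the quinone and sulfiredoxin genes differed by less. Txnrd1 had 47.2, 39.8, 26.6 and 29.0 CPM and log2 ratios of 0.80 and 0.44. Srxn1 had 29.3, 17.5, 17.7 and 12.8 CPM (0.69 and 0.43), so the 7-day culture was close to 9 dpp. Nqo1 had 23.1, 16, 19.2 and 20.2 CPM, without a common direction. Osgin1 had 17.4, 31.5, 9.19 and 18.3 CPM; the log2 ratios were 0.85 and 0.75 in the culture pairs and 0.92 and 0.82 with time. It was thus higher at the later time both in culture and without it.

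Among glutathione genes of this class, Gclm had 85.8, 62.7, 61 and 58.9 CPM, Gclc 9.11, 12.3, 5.66 and 9.67, and Gsr 56.5, 39.1, 36.0 and 37.7. For Gclm and Gsr the 2-day culture alone stood above the rest. Prdx1 had 1632, 1162, 1214 and 1260 CPM; the log2 ratios were 0.43 and −0.12, so here too only the 2-day culture was higher.

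The makeup of this class differed between libraries. Pericyte markers summed to 324, 287, 159 and 169 CPM, higher in culture, and their part in the member levels was not tested. Myoid markers summed to 4592, 7548, 12783 and 16589 CPM, lower in culture, and stroma markers to 12398, 12381, 12142 and 12390 CPM. The class was therefore split by whether stroma or myoid markers were more abundant. Since myoid markers were themselves lower in culture, the parts need not hold the same cell types in each library. Among cells with more stroma UMIs (2198, 1158, 1088 and 660 cells), Hmox1 was 2.17-fold (1.80 to 2.63) and 2.33-fold (1.77 to 3.10) higher in culture, and Srxn1 2.03-fold (1.61 to 2.57) and 1.58-fold (1.08 to 2.36). Among cells with more myoid UMIs (313, 367, 422 and 443 cells), Hmox1 was 1.50-fold (0.893 to 2.47) and 1.56-fold (0.903 to 2.72) higher, both intervals including no difference. Srxn1 in these myoid cells gave ratios of 0.767 and 0.599, and Osgin1 was 9.41-fold (3.33 to 32.6) and 2.72-fold (1.48 to 5.20) higher on 17, 34, 5 and 17 UMIs. Txnrd1 was 1.89-fold and 1.70-fold higher in the stroma cells.

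Germ-like cells had the highest levels of Gclm, Gclc and Gsr among the 4 large classes but showed no member past 2-fold in either culture pair. Of the 8 members with at least 50 UMIs, none was called higher (background 1.27% and 0.729% of 14549 genes) or lower (background 3.18% and 2.31%). Slc7a11 and Osgin1 were too sparse there. Gclm had 271, 283, 215 and 238 CPM, and Gclc had 37.6, 38.2, 34 and 33.7. Gclm was slightly higher in culture, by 0.33 and 0.25 on the log2 scale. Srxn1 had 5.41, 3.26, 3.52 and 2.48 CPM (0.50 and 0.29), and Txnrd1 had 18.7, 20, 30.6 and 22.3 CPM (−0.68 and −0.15). Subtracting a free RNA estimate gave 0.13 and 0.75 for Srxn1. Nqo1 was at 2.5, 0.875, 2.07 and 0.747 CPM.

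Hmox1 in germ-like cells had 93.2, 41.9, 120 and 69.5 CPM, lower in culture, with ratios of −0.36 and −0.72 on the log2 scale. Gsr had 354, 175, 349 and 251 CPM, and Prdx1 2520, 1857, 2712 and 1949. All 3 were lower at the later time, in culture and without it. Hmox1 (−1.14) and Gsr (−1.01) were the 2 members called lower in the 7-day against the 2-day culture (background 2.64%, and 5.58% higher with no member), and none was called in 14 dpp against 9 dpp (background 5% higher and 1.04% lower). Macrophage markers summed to between 3.02 and 7.44 CPM in germ-like cells.

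Spermatogonia-like cells, the mitotic germ cells, made up 41.9%, 27.5%, 60.2% and 35.7% of germ-like cells, and early prophase-like cells, which have entered meiosis, 34.5%, 38.1%, 20.1% and 40.4%. Hmox1 had 125, 87.9, 137 and 110 CPM in spermatogonia-like cells and 30.6, 14.1, 35.4 and 18 CPM in early prophase-like cells. It was 4.08-fold (3.28 to 5.14), 6.25-fold (4.91 to 8.04), 3.87-fold (3.22 to 4.70) and 6.09-fold (5.09 to 7.33) lower in early prophase in the 4 libraries. Pachytene-like cells, a later stage, had 1 Hmox1 UMI in the 7-day culture and 5 at 14 dpp. With the stage shares held equal, the log2 ratios of Hmox1 in germ-like cells went to −0.19 and −0.36, and that of Gsr in the later pair from −0.52 to −0.19. Neither gene was then past 2-fold between the cultures. The Gsr call between the cultures also ended under TMM and DESeq2 factors, with all deposited barcodes and with each cell weighted equally.

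Gsr followed the same stage order, with 489, 352, 405 and 395 CPM in spermatogonia-like cells and 96.1, 57.8, 116 and 76.4 in early prophase-like cells, 3.49-fold to 6.10-fold lower. Txnrd1 was lower in early prophase as well, with 24.2, 34.3, 35.5 and 32.6 against 7.90, 10.7, 8.47 and 7.25 CPM. With the stage shares held equal, its later-pair log2 ratio in germ-like cells turned from −0.15 to 0.08. Prdx1 had 3035, 2018, 2913 and 2377 CPM in spermatogonia-like cells and 1581, 1956, 1610 and 1396 in early prophase-like cells, with little difference in the 7-day culture. It reached 1185 and 795 CPM in pachytene-like cells of the 7-day culture and 14 dpp.

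Gclm ran the other way. It had 262, 226, 205 and 207 CPM in spermatogonia-like cells and 300, 336, 260 and 299 in early prophase-like cells, 1.15-fold, 1.49-fold, 1.27-fold and 1.44-fold higher. Pachytene-like cells had 266 and 210 CPM. Gclc stayed between 31.4 and 42.6 CPM in both stages of all 4 libraries. Gclm and Gsr thus had opposite stage orders in all 4 libraries.

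**Figure D4:**
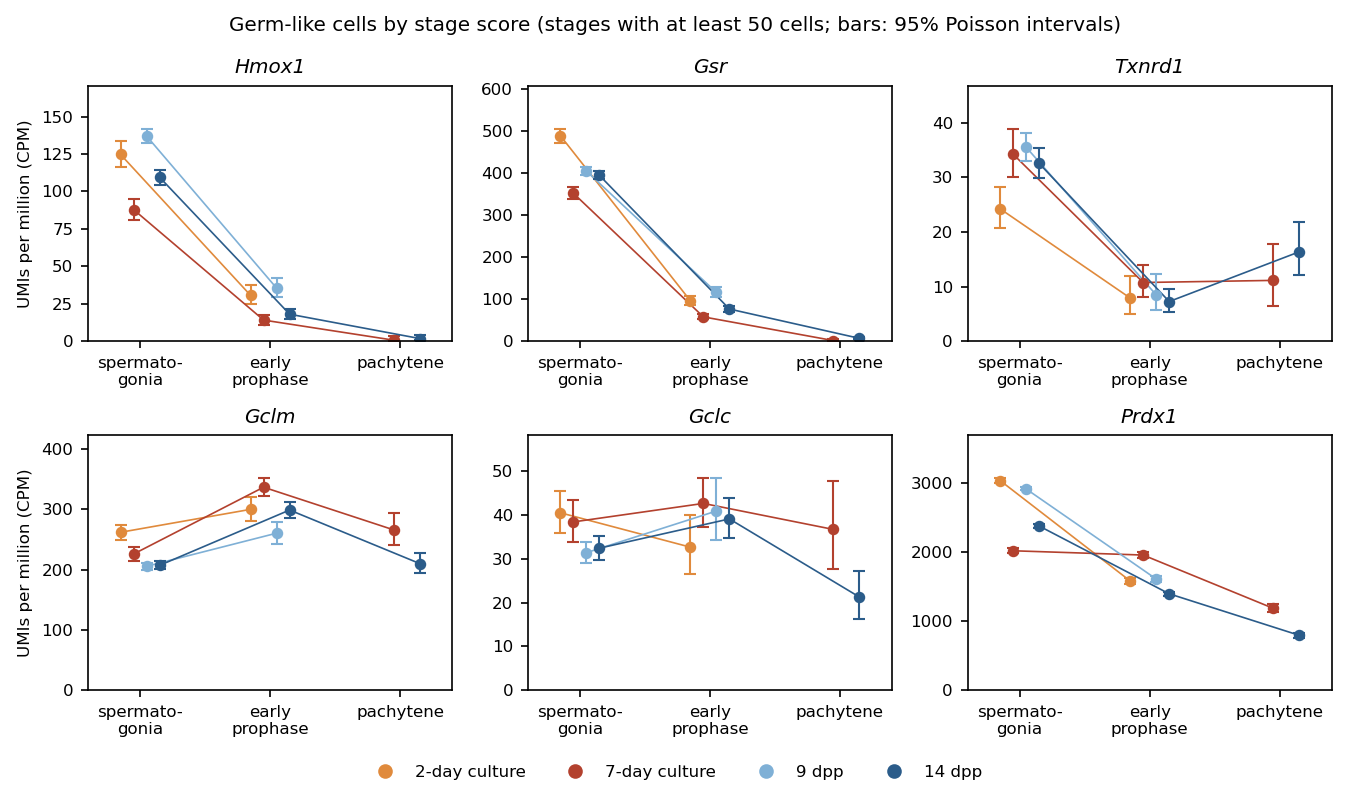
Level in CPM (vertical axes) of Hmox1, Gsr, Txnrd1, Gclm, Gclc and Prdx1 by germ stage, for stages with at least 50 cells in a library, with 95% Poisson intervals. Hmox1 and Gsr are lower in early prophase-like than in spermatogonia-like cells in each of the 4 libraries, and Gclm is higher.

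In Sertoli-like cells, the somatic nurse cells of the tubule, Srxn1 was the one member called higher in the 2-day culture against 9 dpp (background 6.91% of 11748 genes). Srxn1 reached the minimum of 50 UMIs there only with those of the cultures, so this call is not read against that share. Its level was 8.18, 3.20, 2.27 and 1.90 CPM, and the log2 ratios were 1.49 (0.96 to 2.00) and 0.54 (−0.22 to 1.27). Srxn1 was also called lower in the 7-day than in the 2-day culture (−1.13, background 3.77%, and 2.31% higher with no member). Once a free RNA estimate was subtracted, that difference was −0.62, under 2-fold, while the later culture pair went from 0.54 to 1.11, past 2-fold. None of the 8 tested members was called higher in the 7-day culture against 14 dpp (background 11.1%), and none lower in either pair (background 6.15% and 6.38%). Hmox1 had 60.3, 49.9, 77.6 and 58.5 CPM, lower in culture than at the matched age. Gclc was also lower in culture, with 8.33, 10.8, 12.5 and 16.9 CPM, and after the same subtraction its log2 ratios were −1.05 and −1.18, past 2-fold.

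Nqo1 in Sertoli-like cells had 6.82, 5.40, 8.45 and 2.57 CPM and was called lower at 14 dpp than at 9 dpp (−1.40, background 9.27%, and 4.62% higher with no member). Gclm had 72.9, 74.5, 62.4 and 74.9 CPM, with a log2 ratio of 0.22 (0.06 to 0.38) in the earlier pair, and Txnrd1 had between 30.4 and 36.7 CPM. Gsr had 128, 90.2, 113 and 103 CPM, and Prdx1 1261, 727, 1135 and 914. Osgin1 had 22, 14, 3 and 3 UMIs in Sertoli-like cells, too few for the ratios but higher in both cultures. Sertoli markers summed to 17184, 19015, 25840 and 27714 CPM in this class. Stroma markers summed to 144, 36.1, 35.1 and 21.1 CPM and Leydig markers to 275, 141, 176 and 35.9 CPM. Myoid markers, with 286, 148, 282 and 335 CPM, were lower in the 7-day culture than at 14 dpp. The part of these in the member levels was not tested.

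Leydig-like cells, the steroid-making cells of the interstitium, had 8 of 10 members positive in the 2-day culture against 9 dpp, beside 42.2% of all genes. The median log2 ratio was 0.56 beside −0.11 for all genes, and 2 members were called higher (background 5.03%). In the later pair 3 of 10 were positive, beside 51.4% of all genes, with a median of −0.34 beside 0.02. There 4 members were called lower in the 7-day culture than at 14 dpp (background 7.75% of 7829 genes) and 1 higher (background 5.88%). The same 4 members, Hmox1, Srxn1, Slc7a11 and Osgin1, were called higher at 14 dpp than at 9 dpp (background 3.36%, and 4.99% lower with no member). Both comparisons share the 14 dpp library, and the level at 14 dpp was the highest of the libraries for Hmox1, Slc7a11 and Osgin1. Srxn1 and Slc7a11 reached the minimum of 50 UMIs in this class only with those of 14 dpp. Their calls against 14 dpp are therefore not read against the background. With a class lead of at least 3 times, only Hmox1 and Srxn1 of the 4 were called lower in the later pair, and Slc7a11 and Gclc then had under 50 UMIs and were not compared. Hmox1 had 23.0, 23.3, 21.2 and 77.3 CPM, on 16, 18, 33 and 134 UMIs. It was 3.64-fold (2.47 to 5.51) higher at 14 dpp than at 9 dpp and 3.32-fold lower in the 7-day culture than at 14 dpp.

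Slc7a11 had 2, 3, 6 and 53 UMIs in Leydig-like cells, or 2.87, 3.88, 3.86 and 30.6 CPM, 7.93-fold (3.41 to 22.6) higher at 14 dpp than at 9 dpp. Osgin1 had 61.8, 50.5, 34.7 and 104 CPM, 2.99-fold (2.20 to 4.13) higher at 14 dpp than at 9 dpp and 2.06-fold lower in the 7-day culture than at 14 dpp. Srxn1 had 19, 0, 9 and 44 UMIs, or 27.3, 0, 5.79 and 25.4 CPM. It was 4.72-fold (2.03 to 11.8) higher in the 2-day culture than at 9 dpp, and in the 7-day culture it was at least 6.54-fold lower than at 14 dpp against a floor of 3 UMIs. Against the 2-day culture it was at least 7.03-fold lower.

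**Figure D5:**
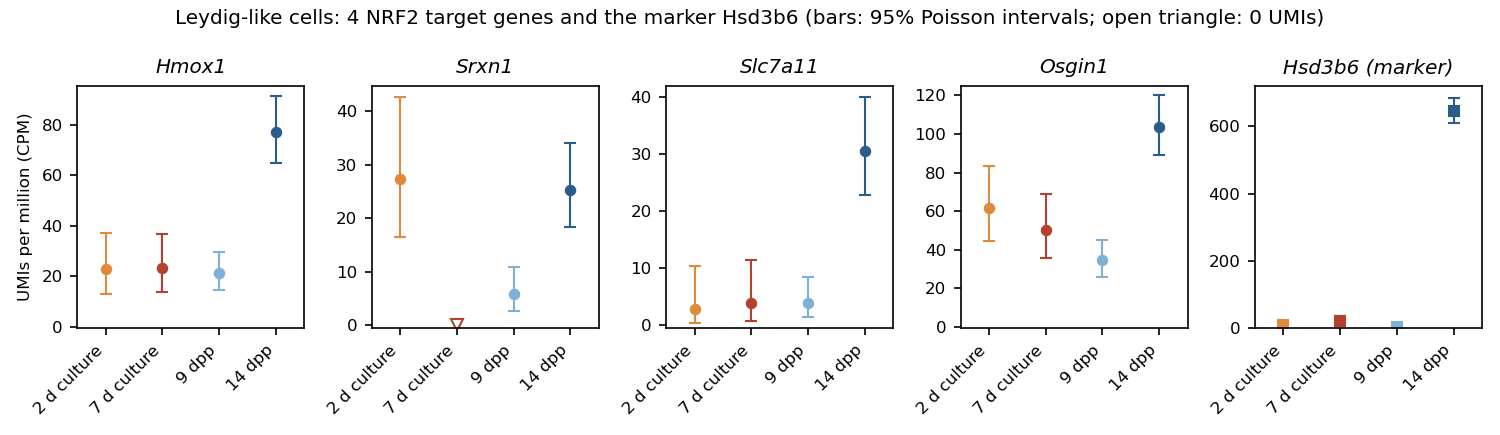
Level in CPM (vertical axes, from 0 for Hsd3b6 and from just below 0 for the others) of Hmox1, Srxn1, Slc7a11 and Osgin1 and of the Leydig marker Hsd3b6 in Leydig-like cells of the 4 libraries, with 95% Poisson intervals. Hmox1, Slc7a11, Osgin1 and Hsd3b6 are highest at 14 dpp, on 73 to 134 cells per library.

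The other members of Leydig-like cells set the cultures apart in places. Txnrd1 had 51.7, 31.1, 25.1 and 30.0 CPM, 2.06-fold (1.27 to 3.33) higher in the 2-day culture than at 9 dpp, and was called with Srxn1 (background 5.03% higher and 10.7% lower, the latter with no member). Gsr had 97.7, 46.6, 51.4 and 49.1 CPM, and the 2-day culture alone stood out. Gsr and Srxn1 were called lower in the 7-day than in the 2-day culture (background 5.26%, and 6.81% higher with no member). The Gsr ratio went from −1.05 to −0.62, under 2-fold, with each cell weighted equally. Gclc was the member called higher in the 7-day culture, at 15.5 against 6.93 CPM, with a log2 interval of −0.11 to 2.19 that includes no difference. Gclm had 90.5, 71.2, 55.9 and 65.2 CPM, Nqo1 28.7, 23.3, 36.7 and 23.7, and Prdx1 2192, 1474, 1734 and 2236.

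Markers of the Leydig-like class moved between libraries too. Hsd3b6, a marker of adult Leydig cells, had 10.1, 22.0, 3.22 and 647 CPM. Cyp17a1, which makes androgen precursors, had 54.6, 180, 3819 and 1472 CPM, and Insl3 171, 104, 1407 and 701 CPM. Not all markers of the class were lower in culture. Cyp11a1, which makes pregnenolone, had 4224, 3988, 2527 and 2720 CPM, higher in both cultures. Hsd3b1 had 1586, 3627, 3311 and 2092 CPM, lower in the earlier pair and higher in the later. Fabp3 (608, 1521, 818 and 1194 CPM) and Akr1c14 (28.7, 90.6, 36.0 and 21.9 CPM) did likewise. All 10 Leydig markers summed to 7204, 9727, 12701 and 9821 CPM, and macrophage markers in this class to 7.18, 0, 5.79 and 23.7 CPM. The part of these in the member levels was not tested.

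Endothelial-like cells, 44, 18, 16 and 25 in number, are described only. Hmox1 had 106, 80.8, 45.4 and 39.3 CPM there and Txnrd1 110, 90.4, 50.5 and 23.6 CPM. Srxn1 had 11, 13, 0 and 2 UMIs and Osgin1 3, 16, 0 and 1, and each of these 4 genes stood higher in the culture of each pair. Over the 4459 genes with at least 50 UMIs in these cells, 12.7% were past 2-fold higher and 11.2% lower in culture in the earlier pair, and 16.1% and 9.91% in the later. Srxn1 and Osgin1 were under that minimum, and Hmox1 and Txnrd1 reached it only with the UMIs of the cultures, so no count of members is read against these shares. Gclm had 149, 71.2, 60.6 and 68.1 CPM and Prdx1 1802, 1187, 1369 and 1059 CPM, and their later pairs lay close together. Gsr had 143, 67.4, 141 and 65.5 CPM, alike within each pair, and Gclc 2.04, 17.3, 10.1 and 18.3 CPM, on at most 9 UMIs. Slc7a11 (3, 1, 0 and 0) and Nqo1 (1, 0, 0 and 1) had too few UMIs to compare. Cells left without a class numbered 239, 116, 130 and 447, and in them Srxn1 had 50.9, 17.9, 0.725 and 2.03 CPM.

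Ordered over the 16 sums of the 4 large classes in the 4 libraries, Hmox1 was highest in germ-like cells at 9 dpp (120 CPM, 116 to 124), followed by germ-like cells of the 2-day culture (93.2 CPM, 87.8 to 98.8). Next came Sertoli-like cells at 9 dpp (77.6 CPM), Leydig-like cells at 14 dpp (77.3) and germ-like cells at 14 dpp (69.5), of which the Leydig-like interval of 64.8 to 91.6 overlapped both neighbours. The 3 other Leydig-like sums and the uncultured stroma/myoid-like sums, 18.7 to 23.3 CPM, closed the order with overlapping intervals. Gclm, Gclc and Gsr had their 4 highest sums in germ-like cells, and Nqo1 and Osgin1 had theirs in Leydig-like cells. Srxn1 and Txnrd1 were led by stroma/myoid-like and Leydig-like cells of the 2-day culture, whose intervals overlapped.

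The 16 sums share 4 libraries and 4 classes, so the Pearson correlations of log2(CPM + 1) are given as a description. Nqo1 correlated with Osgin1 (r = 0.90), Gclm with Gclc (0.88) and with Gsr (0.86), whereas Nqo1 ran against Gsr (−0.83) and Gclm (−0.80). Prdx1 was near 0 with Nqo1 (−0.09) and Osgin1 (0.10), as was Hmox1 with Slc7a11 (−0.02), and the remaining pairs lay between −0.76 (Gsr with Osgin1) and 0.82 (Gclc with Gsr). Over all genes, the pattern of Osgin1 was most like those of Ppara (0.98), Vcam1 (0.97) and Abcc9 (0.97), and that of Nqo1 most like those of Arpin, Idh2 and Pon2 (all 0.97). Gclm was most like Gm595 (0.99), Gsr like Gtf3c6 (0.97), Gclc like Vps16 (0.94) and Prdx1 like Prkar1a (0.94). Hmox1 (Mlxip, 0.87), Slc7a11 (Ccs, 0.87), Txnrd1 (Npc2, 0.89) and Srxn1 (Chrd, 0.89) had less close matches.

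Genes that control the pathway were measured in the same way. Nfe2l2 had 123, 97.0, 105 and 92.5 CPM in all cells, and Keap1 had 38.7, 38.5, 35.9 and 33.2. Of 11 regulators, 1 was past 2-fold higher in each pair (background 4.18% and 3.57% of all genes) and none lower (3.40% and 2.67%), with medians of 0.07 and 0.21 beside −0.12 and 0.00 for all genes. These backgrounds and all-gene medians also stand beside the counts of the lists that follow. That gene was Maff, a small MAF partner of NRF2, with 15.4, 9.81, 2.38 and 2.39 CPM and log2 ratios of 2.28 and 1.67. Bach1, the repressor, differed by 0.53 and 0.62 in all cells and by 1.22 and 1.38 in stroma/myoid-like cells. Sqstm1, which encodes the KEAP1-binding adaptor p62, differed by 0.48 and 0.41. Lower in culture were Cul3 (−0.33 and −0.16) and Rbx1 (−0.22 and −0.08). The class shares differ between libraries, so counts within classes are given for each list, to be read beside the class backgrounds above. Of the regulators, none was past 2-fold in germ-like cells, while 1 and 2 were higher in the pairs in Sertoli-like cells and 2 and 2 in stroma/myoid-like cells. In Leydig-like cells none was past it in the earlier pair, and 1 was higher and 1 lower in the later.

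Of 30 other NRF2 targets, 28 were tested, and 6 were past 2-fold higher and 1 lower in the earlier pair and 5 higher and none lower in the later, with medians of 0.34 and 0.07. Within classes the list went both ways. In germ-like cells 2 were higher and 1 lower in the earlier pair and none higher and 1 lower in the later (medians −0.05 and −0.36), and in Sertoli-like cells 3 and 3, then 2 and 2 (0.35 and −0.05). Stroma/myoid-like cells had 7 higher and 1 lower, then 4 and 1 (0.17 and 0.26), and Leydig-like cells 8 and 2, then 4 and 1 (0.68 and −0.01). Cbr3, a carbonyl reductase, had 16.4, 10.9, 4.25 and 3.47 CPM; the log2 ratios were 1.73 and 1.41. Fth1, the ferritin heavy chain that stores the iron heme oxygenase releases, had 3996, 3117, 1263 and 1430 CPM, which gave log2 ratios of 1.66 and 1.12. Slc48a1, a heme transporter, differed by 1.08 and 0.92. Other targets were lower in culture: Aldh3a1 (−2.09 and −0.60), Gsta4 (−0.49 and −0.88) and Gstp1 (−0.33 and −0.59). In stroma/myoid-like cells Fth1 differed by 1.82 and 0.90 and the ferritin light chain Ftl1, added after its values were seen, by 0.96 and 1.11.

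Among 13 genes of glutathione synthesis and use, 2 were called higher in each pair and none lower, with medians of 0.47 and 0.15. No class reached the earlier median: it was −0.12 in germ-like, 0.18 in Sertoli-like, 0.21 in stroma/myoid-like and −0.07 in Leydig-like cells. The later medians were −0.04, 0.46, 0.33 and −0.37 in the same order. Within classes, the higher calls in the pairs were 0 and 0 in germ-like, 2 and 2 in Sertoli-like, 1 and 2 in stroma/myoid-like and 1 and 2 in Leydig-like cells. The lower calls were 1 and 1, 0 and 0, 0 and 0, and 1 and 3. The 2 genes called in all cells were the secreted peroxidase Gpx3 (1.28 and 2.31) and the glutathione-cleaving Ggt5 (1.09 and 2.00). Chac1, which degrades glutathione, differed by 0.94 and 0.68, and Gss, glutathione synthetase, by −0.32 and −0.11. Of 17 other antioxidant enzymes, 1 was higher and none lower in the earlier pair, and none higher and 1 lower in the later, with medians of −0.08 and −0.13, counts near the all-gene shares. Within classes at most 1 of these was higher in either pair and up to 3 were lower. Catalase (Cat) differed by 0.14 and 0.11, Sesn2 by −0.72 and −0.94 and Prdx6 by −0.17 and −0.71.

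Of 13 genes of heme and iron handling, 3 were called higher and none lower in each pair, with medians of 0.07 and 0.06. The lists overlap: Fth1 and Ftl1 are also among the other NRF2 targets, and Fth1 was past 2-fold higher in both pairs. Within classes, the higher calls in the pairs were 1 and 0 in germ-like, 3 and 4 in Sertoli-like, 3 and 2 in stroma/myoid-like and 2 and 0 in Leydig-like cells, and the lower calls 0 and 0, 1 and 1, 0 and 0, and 1 and 2. Ceruloplasmin (Cp), a ferroxidase, had 225, 52.5, 20.4 and 23.9 CPM; the log2 ratios were 3.40 and 1.10, and the ferrireductase Steap3 differed by 1.12 and, just under 2-fold, by 0.996. Hmox2, the constitutive heme oxygenase, differed by −0.22 and −0.25, and the transferrin receptor Tfrc by −0.49 and −0.34. Of 16 ATF4 targets, another stress group that includes amino acid genes, 1 was higher and 2 lower in the earlier pair and 2 higher and none lower in the later, with medians of 0.10 and −0.20. Chac1, Slc3a2 and Sesn2 of this list were also counted in lists above. Sertoli-like cells had 4 lower in each pair and 1 and 3 higher, stroma/myoid-like cells 3 and 2 higher and 0 and 1 lower, germ-like cells 1 and 0 higher and 2 and 1 lower, and Leydig-like cells 1 and 0 higher and 0 and 3 lower. Nupr1 differed by 2.72 and 1.22 and Atf4 itself by 0.69 and 0.93, whereas Phgdh differed by −1.10 and −0.66 and Ddit4 by −1.06 and −0.96.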

How the data were processed

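The deposited matrices hold raw UMI counts per gene and cell barcode. Per the submitters' processing notes, the authors used Cell Ranger 3.0.2 and the mm10 build. Per the labels' protocols, libraries were made with 10x 3′ v2 kits. Barcodes under 500 genes or over 20% mitochondrial UMIs were left out, and Scrublet calls (scanpy 1.11.5, expected rate 6%) were removed: 104 to 275 per library. A cell got a class where its marker UMIs, at most 3 counted per marker, reached 5 over at least 3 markers and 2 times the next class. Leydig markers were not set against stroma, myoid or pericyte markers, nor pericyte against myoid markers, and a cell that met the Leydig or pericyte rule was taken from stroma/myoid. Germ stages needed 4 and 1.5 times. UMIs were summed per library and class and scaled to CPM. Ratios were computed for genes with 50 or more UMIs in all and classes with at least 50 cells, on CPM + 1. The named genes were all 10 members and, of each other list, up to 3 genes higher and 3 lower in both culture pairs with the largest smaller ratio. Likeness took the 3 best correlated genes. Other constants, TMM (edgeR 4.0.16) and DESeq2 1.42.0 factors, cell filters and weightings were tried, and the pipeline was tested on simulated data. Members and lists were chosen with earlier results of these data known.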

Additional observations from a re-analysis of the deposited data

Results flagged for a closer look

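The following pairs of log2 ratios had opposite signs with both counting intervals clear of 0. None of these differences was tested, since each group is 1 library. In all cells, Hmox1 gave −0.17 for the 2-day culture against 9 dpp and 0.38 for the 7-day culture against 14 dpp. With class shares held equal these were 0.05 and 0.63, and with each cell weighted equally −0.26 and −0.12, of the same sign in each case. Slc7a11 in all cells gave 0.54 for 14 dpp against 9 dpp and −0.55 for the 7-day against the 2-day culture. In Sertoli-like cells, the 2-day and 7-day culture pairs gave 0.17 and −0.19 for Gsr and 0.15 and −0.33 for Prdx1. In stroma/myoid-like cells, Prdx1 gave 0.43 and −0.12 in the culture pairs, and 0.0531 without culture against −0.49 in culture for the later against the earlier time. Leydig-like cells gave 0.34 and −0.60 for Prdx1 and 0.81 and −1.03 for Osgin1 in the culture pairs. The time comparisons of Prdx1 there were 0.37 without culture and −0.57 in culture. Srxn1 in Leydig-like cells gave 2.06 and −4.72 in the culture pairs and 1.96 and −4.82 in the time comparisons. The size of the negative Srxn1 values depends on the constant added to CPM, because the 7-day culture had 0 UMIs.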

How the results depend on the processing

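No paired analysis was possible because each group is 1 library, and leaving out a replicate was not possible for the same reason. No ratio past 2-fold changed sign under any alternative. Calls are counts of members past 2-fold. With 0.1 added to CPM, all-cell calls went from 0 to 1 for 14 dpp over 9 dpp (Osgin1) and for lower in the 7-day than the 2-day culture (Nqo1), germ-like lower calls at 14 dpp from 0 to 1 and between the cultures from 2 to 3 (both Nqo1), and later-pair Sertoli-like calls from 0 to 1 (Nqo1). With 10 added, higher calls went from 3 to 0 and 1 to 0 in all cells, 1 to 0 in the earlier Sertoli-like pair, 2 to 0 in both stroma/myoid-like pairs, and for Leydig-like cells 2 to 1 and 1 to 0, and their later lower calls went from 4 to 3 (without Osgin1). Lower calls of the time comparisons went from 2 to 0 in germ-like cells, 1 to 0 in both Sertoli-like comparisons, 1 to 0 in stroma/myoid-like cells and 2 to 1 in Leydig-like cells. TMM and DESeq2 factors each took lower calls between the cultures from 0 to 1 in all cells (Nqo1) and 2 to 1 in germ-like cells, and earlier Leydig-like calls from 2 to 3 (Gsr). DESeq2 factors also took earlier stroma/myoid-like calls from 2 to 3 (Osgin1). All deposited barcodes took the germ-like lower calls between cultures from 2 to 1. Without a UMI minimum, Sertoli-like calls went from 1 to 2 and 0 to 1 (both Osgin1). A stricter cell filter took calls from 0 to 1 for 14 dpp over 9 dpp (Osgin1) and in the later Sertoli-like pair (Nqo1), and from 2 to 3 in the earlier Leydig-like pair (Gsr). Leaving out shared barcodes took the later Leydig-like lower calls from 4 to 3. Weighting each cell equally took all-cell calls from 3 to 1 and 1 to 0 (without Srxn1 and Slc7a11), stroma/myoid-like calls from 2 to 0 and 2 to 1 and, for 14 dpp over 9 dpp, 0 to 1 (Osgin1), lower calls between cultures from 2 to 1 in germ-like and Leydig-like cells (both without Gsr), and earlier Leydig-like calls from 2 to 3 (Osgin1). A class lead of at least 3 times took Leydig-like calls of the later pair from 1 to 0 higher and 4 to 2 lower, and at 14 dpp over 9 dpp from 4 to 3 (Gclc and Slc7a11 fell under the UMI minimum and were not compared, and Osgin1 lost its lower call), and 1 lower call to 0 over time in Sertoli-like and in stroma/myoid-like cells. Subtracting a free RNA estimate took calls from 0 to 1 for Srxn1 (higher) in the later Sertoli-like pair and for Gclc (lower) in both Sertoli-like pairs and in Leydig-like cells at 14 dpp. It took earlier calls from 2 to 3 in stroma/myoid-like (Txnrd1) and Leydig-like cells (Gsr), and 1 lower call to 0 over time in Sertoli-like and in stroma/myoid-like cells. Equal class shares gave 1 call in place of 0 for 14 dpp over 9 dpp (Osgin1), and kept the sign of 34 of 40 all-cell ratios, moving 28. Equal germ stage shares, chosen after seeing the data, took the germ-like lower calls between cultures from 2 to 0. Without macrophage-like and mixed cells, also chosen then, all-cell calls went from 3 to 2 and 1 to 0, and lower calls between cultures from 0 to 2 (Nqo1 and Srxn1). Of 184 member ratios, 168 kept their sign with cells weighted equally, 178 with DESeq2 factors, 180 with TMM factors and with the stricter filter, and 181 with all deposited barcodes. Shares of cells with a UMI moved in 144 of 160 cases when not thinned. Depth limits Slc7a11, Osgin1, Nqo1 and the classes under 50 cells. The cause of these changes was not tested.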
